A study of Mus musculus with 96 samples.

Results

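Liver macrophages of RevScapTKO mice were compared with those of Control mice over the whole day, in 24 of the 96 libraries of the study (12 of each group, 3 at each of ZT4, ZT10, ZT16 and ZT22, hours after lights on). The macrophages comprise the resident Kupffer cells and macrophages derived from blood monocytes. All mice were male C57BL/6J carrying floxed alleles, kept in 12 h of light and 12 h of dark, injected intravenously with an adeno-associated virus when 8 weeks old, and then fed a high fat and sucrose diet (D12492) for 4 weeks. Control mice received AAV-TBG-GFP, while RevScapTKO mice carried floxed Nr1d1, Nr1d2 and Scap and received AAV-TBG-CRE, and RevDKO mice, shown beside them with 12 libraries, lost Nr1d1 and Nr1d2 alone. Which of the floxed lines the Control mice came from is not given in the sources used here. The TBG promoter is active in hepatocytes, so the macrophages themselves were not the target of the deletion.

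Nr1d1 and Nr1d2 encode REV-ERBα and REV-ERBβ, heme-binding nuclear receptors that repress genes of the circadian clock and of lipid metabolism. Scap encodes the escort that carries the SREBP transcription factors from the endoplasmic reticulum to the Golgi, where they are cleaved to enter the nucleus and switch on genes of cholesterol and fatty acid synthesis. Kupffer cells sit in the liver sinusoids, clear particles, aged red cells and lipoproteins from the blood, and in fatty liver share the tissue with recruited macrophages that take on a lipid-associated state.

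Levels are RPKTM, that is RPKM (reads per kilobase of transcript, scaled to mapped reads) multiplied by 10, after quantile normalization. Differences are RevScapTKO minus Control of log2(RPKTM + 1), and for weakly expressed genes the added 1 makes them smaller than the change in level. A gene was called where the adjusted p of a limma fit with ZT as covariate, Benjamini-Hochberg over all genes tested, fell under 0.05. The labels do not say whether the 3 libraries of a group came from separate mice, so p-values measure the spread between these libraries. The kept values give no sequencing depth.

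The libraries held hepatocyte RNA in both groups, and in unequal amounts. Over 20 hepatocyte markers such as Alb, the median marker in a macrophage library stood at 9.86% to 22.2% of its level in hepatocytes of the same genotype and time in Control (median 13.6%), and at 4.58% to 18.7% in RevScapTKO (median 17.3%). Within the macrophage libraries the markers themselves leaned the other way, with 4 of 20 called lower in RevScapTKO, none higher and a median difference of -0.27, and their mean log2 level was 11.1 ± 0.38 (SD, n = 12) in Control and 10.9 ± 0.56 (n = 12) in RevScapTKO. The summed level of these markers ranged from 78052 to 2438430 RPKTM in Control and from 47157 to 1641320 in RevScapTKO. Alb was among the 2 highest values in 3 of 24 libraries (Control ZT16 replicate 1, Control ZT22 replicate 1 and RevScapTKO ZT22 replicate 3). After quantile normalization the highest and second value hold 27.5% and 13.7% of every library's sum, so these sums follow rank. By the median marker the 3 libraries stood at 13.1%, 9.86% and 17.2% of the hepatocyte level, not above their group medians. The 12 pan-macrophage markers, among them Adgre1, Csf1r and the C1q genes, were present in every group, with a mean log2 level of 8.89 ± 0.82 (SD, n = 12) in Control and 8.43 ± 0.73 (n = 12) in RevScapTKO. The 2 ranges overlapped, from 7.0 to 9.92 and from 7.51 to 9.78, yet all 12 markers had a negative difference, with a median of -0.48 and no call by limma (1 at an unadjusted p under 0.05, Adgre1). In bulk samples fewer macrophages and less RNA per macrophage cannot be told apart.

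**Figure D1:**
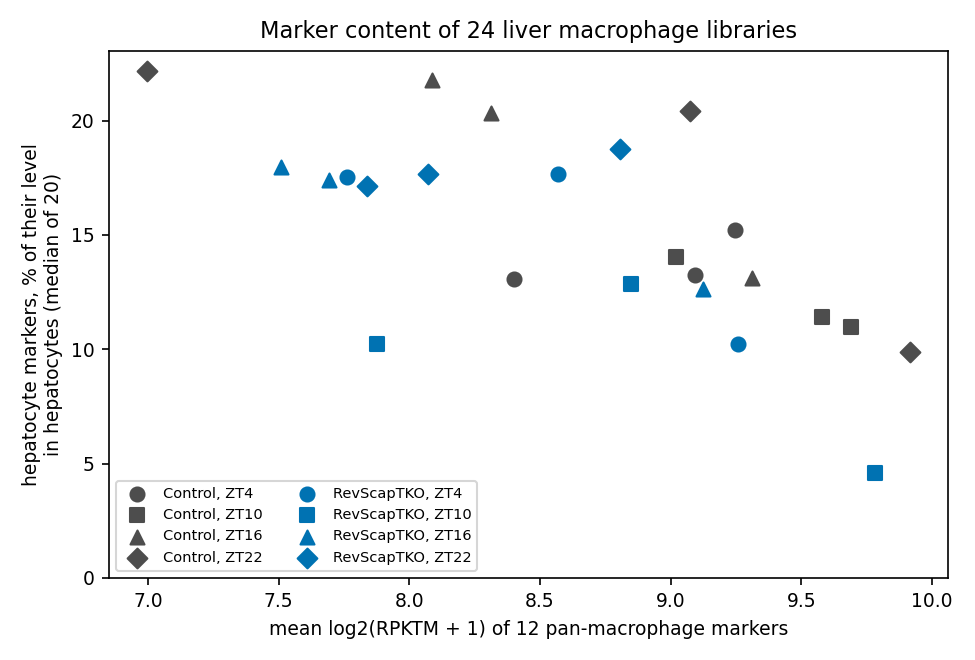
Each point is 1 of the 24 macrophage libraries; the horizontal axis is the mean log2(RPKTM + 1) of 12 pan-macrophage markers and the vertical axis the median of 20 hepatocyte markers as a percentage of their level in hepatocytes of the same genotype and time. Control libraries (grey) reach from 9.86% to 22.2% and RevScapTKO libraries (blue) from 4.58% to 18.7%, and libraries with more hepatocyte RNA tend to lie at lower macrophage marker levels.

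Of 12858 genes tested, 648 were called (5.04%), 394 higher (3.06%) and 254 lower (1.98%) in RevScapTKO. To separate macrophage genes from carried-over hepatocyte genes, each gene was placed by its mean log2 level over the 24 hepatocyte and the 24 macrophage libraries of the same 2 genotypes, with a limit of 4-fold. The hepatocyte class held 2503 genes and 187 calls (7.47% of the class, 68 higher and 119 lower). The macrophage class held 457 genes and 16 calls (3.50%, 4 higher and 12 lower). The shared class held the other 9898 genes and 445 calls (4.50%, 322 higher and 123 lower). Hepatocyte-class genes were thus 19.5% of the genes tested and 28.9% of the calls, whereas macrophage-class genes were 3.55% of the genes tested and 2.47% of the calls. The 2 cell types were normalized in separate tables, so the classes are descriptions of level and were not tested. The macrophage class rested on few libraries: leaving out 1 library gave between 8 and 68 calls, with 68 without Control ZT22 replicate 3, 37 without RevScapTKO ZT10 replicate 1, 35 without RevScapTKO ZT16 replicate 1 and 26 without RevScapTKO ZT22 replicate 2. Without the 3 Alb-rich libraries it held 4 calls, 3 higher and 1 lower, and with the macrophage marker score as a covariate 21, 12 higher and 9 lower, so the balance of directions turned in both. When the hepatocyte share of each library was subtracted before the fit, 67 genes were called in all, 1 of them in this class.

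The calls in the hepatocyte class mostly had the sign of the same genes in hepatocytes. Of these 187 genes, 183 had the same sign in hepatocytes of the same genotypes and 165 were also called there with that sign, against 34.5% of all genes called in hepatocytes in either direction. The 119 that fell had a median difference of -1.22 in the macrophage libraries and of -1.24 in hepatocytes, and stood at a median of 13.7% of the hepatocyte level in Control and 14.8% in RevScapTKO, beside the 13.6% and 17.3% of the hepatocyte markers. The 68 that rose had a median difference of 1.29 in the macrophage libraries and of 0.81 in hepatocytes, and stood at 15.5% and 21.0% of the hepatocyte level. Of the 14 macrophage-class calls that could be tested in hepatocytes, 4 had the same sign there. By level alone, 142 of the 254 genes that fell (55.9%) were at 25% or less of their hepatocyte level in the group where the macrophage libraries were higher, compared with 17.7% of all genes tested and with 53 of the 394 genes that rose (13.5%).

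**Figure D2:**
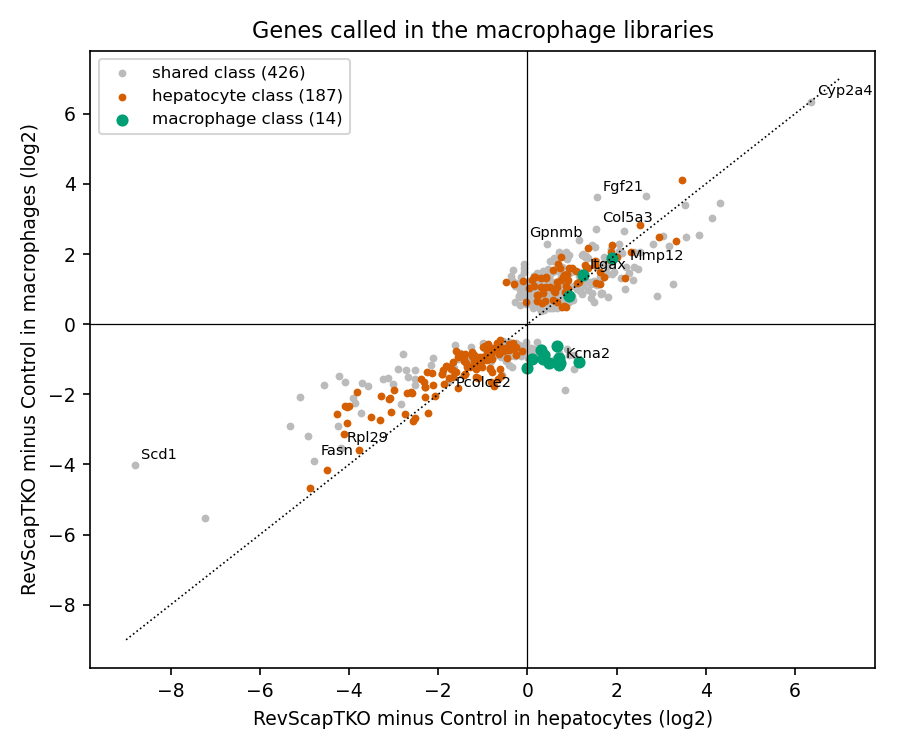
Each point is a gene called in the macrophage libraries and tested in hepatocytes, with its RevScapTKO minus Control difference in hepatocytes on the horizontal axis and in macrophages on the vertical axis, both log2; the dotted line marks equal differences. Hepatocyte-class genes (orange) lie with the same sign in both cell types for 183 of 187, while most macrophage-class genes (green) lie below 0 in macrophages and above 0 in hepatocytes.

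The targeted genes did not pass the test in the macrophage libraries. Scap lay between 46.8 and 212 RPKTM in Control (median 96.4) and between 78.9 and 149 RPKTM in RevScapTKO (median 117), with a log2 difference of 0.04 (SE 0.20, adjusted p = 0.926), whereas in hepatocytes its mean went from 495 to 209 RPKTM (log2 difference -1.30, adjusted p = 4.31e-07). Nr1d2 lay between 14.2 and 105 RPKTM in Control (median 51.1) and between 14.1 and 104 RPKTM in RevScapTKO (median 59.8), with a log2 difference of 0.03 (SE 0.24, adjusted p = 0.953). In hepatocytes its mean went from 228 to 353 RPKTM (log2 difference 0.95, adjusted p = 0.00226). Nr1d1, which overlaps Thra on the opposite strand, lay between 2.85 and 155 RPKTM in Control (median 18.7) and between 12.4 and 76.2 RPKTM in RevScapTKO (median 34.4), with a log2 difference of 0.75 (SE 0.38, adjusted p = 0.237), with differences from -0.75 to 1.78 over the 4 times, and in hepatocytes its mean went from 90.7 to 140.3 RPKTM (log2 difference 1.79, adjusted p = 0.00155). Values over a whole transcript do not show whether a floxed exon is gone, and the deletion was directed to hepatocytes, so these levels are no check of it.

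Genes of cholesterol synthesis and uptake fell together. Of 23 list members tested, 18 were lower, against 1.98% of all genes, and none higher. The median difference was -1.69 against -0.02 over all genes, and all 23 had a negative sign. Fdps, which makes farnesyl diphosphate, lay between 18.3 and 127 RPKTM in Control (median 53.1) and between 2.34 and 8.86 RPKTM in RevScapTKO (median 5.6), with no overlap (log2 difference -3.17, SE 0.27, adjusted p = 1.12e-08). Sqle, the squalene epoxidase, lay between 21.3 and 189 RPKTM in Control (median 41.8) and between 0.564 and 12.3 RPKTM in RevScapTKO (median 7.52), with a log2 difference of -2.90 (SE 0.33, adjusted p = 1.68e-06). Their RevScapTKO libraries all lay below the lowest Control library, a separation seen downward for 0.14% of all genes tested. Insig1, which retains SCAP in the endoplasmic reticulum and is itself an SREBP target, lay between 77.3 and 243 RPKTM in Control (median 152) and between 10.9 and 61.8 RPKTM in RevScapTKO (median 27.6), with a log2 difference of -2.37 (SE 0.22, adjusted p = 6.86e-08), again without overlap. Cyp51, the lanosterol demethylase and 1 of the largest falls of the hepatocyte class, lay between 44.7 and 376 RPKTM in Control (median 86.9) and between 0 and 40.9 RPKTM in RevScapTKO (median 19.4), with a log2 difference of -2.83 (SE 0.41, adjusted p = 5.90e-05), and 1 RevScapTKO library listed it at 0.

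Fatty acid synthesis genes behaved alike. Of 27 members of the fatty acid and triglyceride list, 16 were lower, against 1.98% of all genes, and none higher (median -0.85). Srebf1, which encodes SREBP-1 and overlaps Rai1 on the opposite strand, lay between 149 and 880.4 RPKTM in Control (median 541) and between 43.9 and 119 RPKTM in RevScapTKO (median 62.9), with a log2 difference of -2.90 (SE 0.23, adjusted p = 5.96e-09). Fasn, the fatty acid synthase, lay between 386 and 4707 RPKTM in Control (median 1656) and between 63.5 and 233 RPKTM in RevScapTKO (median 99.5), with a log2 difference of -3.90 (SE 0.31, adjusted p = 4.78e-09). Both separated the groups fully. Scd1, the stearoyl-CoA desaturase, lay between 121 and 2399 RPKTM in Control (median 993) and between 17.9 and 166 RPKTM in RevScapTKO (median 46.3), with a log2 difference of -4.02 (SE 0.35, adjusted p = 1.94e-08) and with 11 of 12 RevScapTKO libraries below every Control library. Fads1, a desaturase of polyunsaturated fatty acids, lay between 90.8 and 358 RPKTM in Control (median 174) and between 23.4 and 87.5 RPKTM in RevScapTKO (median 43.3), with a log2 difference of -2.08 (SE 0.23, adjusted p = 7.86e-07). Mfsd2a, a transporter of lysophospholipids, lay between 7.63 and 152 RPKTM in Control (median 53.2) and between 0 and 37.6 RPKTM in RevScapTKO (median 7.1), with a log2 difference of -3.13 (SE 0.61, adjusted p = 0.00289) and with 6 of 12 RevScapTKO libraries below every Control library. Scd2, a related desaturase, lay between 22.5 and 84.2 RPKTM in Control (median 45.1) and between 24.1 and 66.6 RPKTM in RevScapTKO (median 51.9), and its difference did not pass the test (log2 difference 0.06, SE 0.19, adjusted p = 0.885).

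The same lipid genes fell in hepatocytes, mostly by more. The difference of Srebf1 there was -4.26 (adjusted p = 7.48e-14), that of Fasn -4.79 (adjusted p = 4.11e-11), that of Fdps -4.92 (adjusted p = 1.40e-17) and that of Scd1 -8.81 (adjusted p = 1.88e-18). In Control, Fdps stood in the macrophage libraries at 20.2% of its hepatocyte mean, Srebf1 at 22.6%, Fasn at 24.3% and Scd1 at 12.9%, values within or near the range of the hepatocyte markers. In RevScapTKO these shares were 60.5%, 50.5%, 44.5% and 379.9%, so Scd1 was the 1 gene of the 4 whose remaining level in macrophage libraries exceeded that in hepatocytes. When the estimated hepatocyte share was subtracted from each library before the fit, 1 gene of the cholesterol list and 1 of the fatty acid list were called, and both, Insig1 and Fads1, were then higher, with Scd1, Sqle and Cyp51 also turning to a positive sign without a call. Values under 0 after subtraction were set to 0, so the sign and size of these differences depend on the estimated share and do not show a rise in macrophages. How much of the falls belongs to macrophage RNA was not tested.

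**Figure D3:**
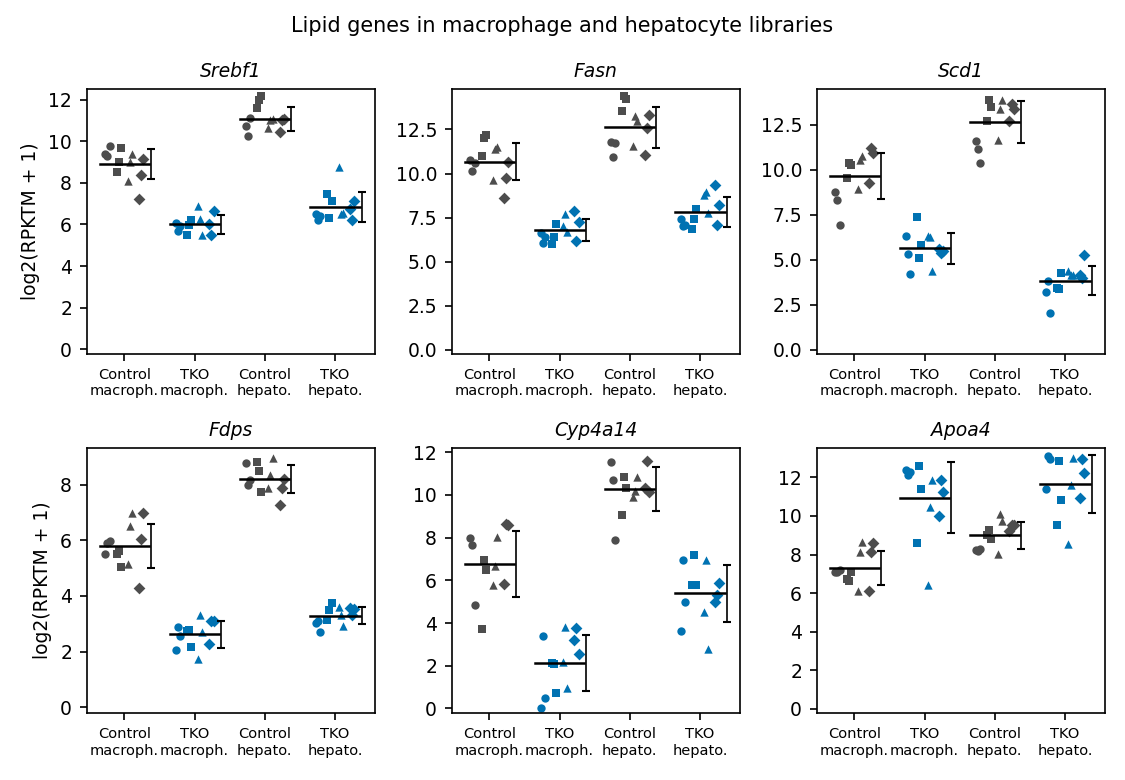
Each point is 1 library, as log2(RPKTM + 1), for Srebf1, Fasn, Scd1, Fdps, Cyp4a14 and Apoa4 in Control (grey) and RevScapTKO (blue) macrophages and hepatocytes; symbols give the time (circle ZT4, square ZT10, triangle ZT16, diamond ZT22), bars the mean and error bars the SD of 12. The 5 genes that fell did so in both cell types, and of these only Scd1 stood higher in RevScapTKO macrophage than hepatocyte libraries; the tables of the 2 cell types were normalized apart.

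Genes under PPARα, the receptor that switches on fatty acid oxidation, fell in part while 2 rose. Of 27 tested, 9 were lower and 2 higher (median -0.51), against 1.98% of all genes lower and 3.06% higher. The largest falls of the hepatocyte class were fatty acid omega-hydroxylases of the Cyp4a family, which holds near-identical copies between which reads can be split. Cyp4a14 lay between 12.2 and 404 RPKTM in Control (median 114) and between 0 and 13.2 RPKTM in RevScapTKO (median 3.47), with a log2 difference of -4.66 (SE 0.48, adjusted p = 3.68e-07), Cyp4a10 differed by -4.16 (adjusted p = 2.37e-08) and Cyp4a12a by -3.58 (adjusted p = 6.14e-07). Cyp4a12a also fell in RevDKO against Control (log2 difference -1.88, adjusted p = 0.0172). Acaa1b, a peroxisomal thiolase that overlaps Dlec1 on the opposite strand, differed by -2.27 (adjusted p = 9.96e-06). It lies 8.77 Mb from Scap on chromosome 9, and the part of that position in its fall was not tested.

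The 2 that rose encode secreted proteins. Fgf21, a hormone released by the stressed or fasted liver, lay between 0 and 5.24 RPKTM in Control (median 0.0795) and between 1.1 and 70.5 RPKTM in RevScapTKO (median 21.7), with a log2 difference of 3.62 (SE 0.50, adjusted p = 3.85e-05). Apoa4, an apolipoprotein of triglyceride-rich particles, lay between 67.5 and 397 RPKTM in Control (median 135) and between 84.6 and 6258 RPKTM in RevScapTKO (median 3207), with a log2 difference of 3.65 (SE 0.52, adjusted p = 5.89e-05). For Fgf21 10 of 12 and for Apoa4 10 of 12 RevScapTKO libraries lay above every Control library. Fgf21 met the limit for testing, at least 3 libraries over 5 RPKTM, through its RevScapTKO libraries. In hepatocytes Fgf21 rose by less (log2 difference 1.55, adjusted p = 0.002), and its mean in RevScapTKO macrophage libraries was 77.3% of that in hepatocytes; for Apoa4 the hepatocyte difference was 2.67 (adjusted p = 6.04e-05) and the share 65.5%. Apoa4 was also higher in RevDKO than in Control (log2 difference 1.75, adjusted p = 0.00109), whereas the RevDKO difference of Fgf21 did not pass the test (log2 difference 0.88, adjusted p = 0.459).

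Among cytochromes P450 of family 2 and glutathione transferases, which detoxify drugs and steroids, 9 of 26 rose and 7 fell. The shares over all genes were 3.06% and 1.98%. Cyp2a4, a steroid hydroxylase nearly identical to Cyp2a5, had the largest rise of the genes named here and lay between 0 and 17.2 RPKTM in Control (median 1.32) and between 3.96 and 2321 RPKTM in RevScapTKO (median 431), with a log2 difference of 6.35 (SE 0.90, adjusted p = 5.02e-05). Cyp2a5 lay between 60.3 and 319 RPKTM in Control (median 137) and between 163 and 3663 RPKTM in RevScapTKO (median 754), with a log2 difference of 2.5 (SE 0.36, adjusted p = 5.93e-05). With reads shared between copies, the 2 values are not independent. Gstm3, a glutathione transferase of the mu family, lay between 0 and 10.2 RPKTM in Control (median 2.61) and between 6.51 and 428 RPKTM in RevScapTKO (median 63.4), with a log2 difference of 4.11 (SE 0.53, adjusted p = 1.18e-05). Mup20, a major urinary protein of male mice, lay between 72.2 and 632 RPKTM in Control (median 168) and between 439.6 and 2696 RPKTM in RevScapTKO (median 1533), with a log2 difference of 2.83 (SE 0.24, adjusted p = 1.12e-08) and with 11 of 12 libraries above every Control library. Abcc12, an ATP-binding cassette transporter, lay between 0 and 1.4 RPKTM in Control (median 0) and between 0 and 75.7 RPKTM in RevScapTKO (median 15.8), with a log2 difference of 3.46 (SE 0.45, adjusted p = 1.17e-05). It met the limit for testing through its RevScapTKO libraries alone, and Cyp2a4 met the limit only with its RevScapTKO libraries. By level Cyp2a4 and Abcc12 were in the shared class, and Gstm3, Mup20 and Cyp2a5 in the hepatocyte class. The other named rises of the hepatocyte class were B930025P03Rik (log2 difference 2.37, adjusted p = 0.00187) and Gm19619 (log2 difference 2.27, adjusted p = 0.0109). Both met the limit for testing only with their RevScapTKO libraries. Of the members that fell, Cyp2e1, which oxidizes ethanol, differed by -1.75 (adjusted p = 5.93e-06) and Cyp2c29 by -1.56 (adjusted p = 0.00104).

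Acute phase genes, secreted by hepatocytes in inflammation, did not move as 1 group: 4 of 18 fell and 1 rose. The shares over all genes were 1.98% and 3.06%. Orm1, an acid glycoprotein, lay between 33.2 and 409.9 RPKTM in Control (median 140.0) and between 3.35 and 107 RPKTM in RevScapTKO (median 25.8), with a log2 difference of -2.57 (SE 0.31, adjusted p = 4.87e-06), and Saa1, a serum amyloid nearly identical to Saa2, lay between 0.364 and 110.3 RPKTM in Control (median 21.0) and between 0.159 and 17.7 RPKTM in RevScapTKO (median 4.2), with a log2 difference of -1.96 (SE 0.52, adjusted p = 0.026). Lcn2, a siderophore-binding lipocalin made by hepatocytes and myeloid cells, went the other way and lay between 0 and 48.0 RPKTM in Control (median 3.56) and between 3.61 and 136 RPKTM in RevScapTKO (median 24.5), with a log2 difference of 2.29 (SE 0.54, adjusted p = 0.0137). Its hepatocyte difference did not pass the test (log2 difference 0.45, adjusted p = 0.621), and its macrophage difference from RevDKO was 3.15 (adjusted p = 4.33e-04).

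Of 19 clock genes, 2 were higher and 1 lower, against 3.06% and 1.98% of all genes. By level 7 of the 19 were in the hepatocyte class and none in the macrophage class, and Npas2 was in the shared class. Npas2 met the limit for testing only with its RevScapTKO libraries. How much of the clock gene differences belongs to macrophage RNA was not tested. Npas2, a partner of BMAL1 that can replace CLOCK, lay between 0 and 9.56 RPKTM in Control (median 0.43) and between 4.84 and 34 RPKTM in RevScapTKO (median 20.1), with a log2 difference of 3.41 (SE 0.38, adjusted p = 9.77e-07) and with 10 of 12 libraries above every Control library. Its RevDKO libraries ranged from 0 to 40.3 (median 22.4), a difference from Control of 3.39 (adjusted p = 2.81e-04), and RevScapTKO differed from RevDKO by 0.02 (adjusted p = 0.986). Nfil3, a bZIP repressor, lay between 2.14 and 40.7 RPKTM in Control (median 20.6) and between 11.1 and 107 RPKTM in RevScapTKO (median 57.5), with a log2 difference of 1.5 (SE 0.35, adjusted p = 0.013), and its RevDKO libraries ranged from 28.5 to 117 (median 65.0), with a difference from Control of 1.79 (adjusted p = 0.00761). Arntl, which encodes BMAL1 and is a classic target of REV-ERB repression, did not pass the test (log2 difference 0.68, SE 0.28, adjusted p = 0.141). Loxl4, a lysyl oxidase that is in no list and was chosen after its values were seen, lay between 4.14 and 79.6 RPKTM in Control (median 16.6) and between 55.4 and 241 RPKTM in RevScapTKO (median 141), with a log2 difference of 3.04 (SE 0.27, adjusted p = 2.80e-08). Its RevDKO libraries ranged from 126 to 281 (median 165), and its hepatocyte difference was 4.13 (adjusted p = 5.86e-10).

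Kupffer cell genes tended downward in the macrophage libraries. Of 22 tested, 4 were lower, against 1.98% of all genes, none was higher and 19 were negative, with a median of -0.70. Pcolce2, an enhancer of procollagen processing, lay between 29.8 and 156 RPKTM in Control (median 81.0) and between 10.8 and 90.3 RPKTM in RevScapTKO (median 26.9), with a log2 difference of -1.25 (SE 0.30, adjusted p = 0.0142) and with 8 of 12 RevScapTKO libraries below every Control library. Kcna2, a potassium channel subunit, lay between 72.5 and 336 RPKTM in Control (median 240.3) and between 31.5 and 243 RPKTM in RevScapTKO (median 95.6), with a log2 difference of -1.15 (SE 0.30, adjusted p = 0.0217) and with 5 of 12 below every Control library. Clec1b, the receptor CLEC-2, differed by -0.83 (adjusted p = 0.0492) and Cd38, an NAD-consuming ectoenzyme, by -0.87 (adjusted p = 0.0468). The defining Kupffer markers did not pass the test: Clec4f lay between 669 and 7571 RPKTM in Control (median 4167) and between 1159 and 7571 RPKTM in RevScapTKO (median 2648), with a log2 difference of -0.37 (SE 0.33, adjusted p = 0.524), and Timd4, a receptor for phosphatidylserine, lay between 61.8 and 503 RPKTM in Control (median 243) and between 62.8 and 397 RPKTM in RevScapTKO (median 175), with a log2 difference of -0.61 (SE 0.32, adjusted p = 0.262).

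These falls ran alongside that of the pan-macrophage markers, whose median was -0.48. In hepatocyte libraries the Kupffer list went the other way, with a median of 0.91, beside 1.23 for the pan-macrophage markers. Called higher there were Kcna2 (log2 difference 0.72, adjusted p = 0.00569), Clec1b (0.71, adjusted p = 0.00295) and Cd38 (0.93, adjusted p = 0.00189). Pcolce2 was not called there (log2 difference -0.02, adjusted p = 0.965). With the macrophage marker score of each library as a covariate, 3 Kupffer genes were lower and 1 higher, with a median of -0.26, against 2.82% of all genes lower in that fit, while Pcolce2 remained lower (log2 difference -0.81, adjusted p = 0.00339). With the hepatocyte marker score as a covariate, 15 were lower, in a fit that called 19.8% of all genes, 9.64% of all genes being lower. Without the 3 Alb-rich libraries, where 3.32% of all genes were called, no Kupffer gene was, and without single libraries 2 to 9 were, with 9 without Control ZT22 replicate 3, 8 without RevScapTKO ZT16 replicate 1, 7 without RevScapTKO ZT10 replicate 1 and 6 without RevScapTKO ZT22 replicate 2. Clec1b lost its call in 18 and Cd38 in 17 of the 24 fits that left out 1 library. The list's median was -0.54 in RevDKO against Control and 0.01 in RevScapTKO against RevDKO, 2 contrasts that share libraries with this one.

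Other falls of the macrophage class were led by Ccl24, the chemokine eotaxin-2, which lay between 25.5 and 96.7 RPKTM in Control (median 58.7) and between 8.72 and 67.5 RPKTM in RevScapTKO (median 23.8), with a log2 difference of -1.11 (SE 0.27, adjusted p = 0.0174). Lrrc25, a leucine-rich repeat membrane protein, differed by -1.09 (adjusted p = 0.0196) and Hey1, a transcription factor under Notch, by -1.10 (adjusted p = 0.0464). Hey1 lost its call in 17 of 24 fits without 1 library. Hmox1, the heme oxygenase with which macrophages break down heme from red cells, lay between 135 and 754 RPKTM in Control (median 371) and between 86.7 and 482 RPKTM in RevScapTKO (median 162), with a log2 difference of -0.98 (SE 0.28, adjusted p = 0.0399). Hmox1 lost its call in 15 of these fits. Among 20 genes of iron and heme handling it was 1 of 2 that fell, with Aco1 (log2 difference -0.57, adjusted p = 0.0349), and Lcn2 was the 1 that rose. Over all genes 1.98% fell and 3.06% rose. A further pair, chosen after their values were seen, fell more steeply. Adamdec1, a metalloprotease of macrophages and dendritic cells, lay between 7.8 and 70.4 RPKTM in Control (median 32.7) and between 2.08 and 23.9 RPKTM in RevScapTKO (median 8.3), with a log2 difference of -1.88 (SE 0.34, adjusted p = 0.00104). Pira2, a paired immunoglobulin-like receptor of a family with near-identical copies, lay between 2.52 and 61.4 RPKTM in Control (median 15.6) and between 0.013 and 11.0 RPKTM in RevScapTKO (median 2.02), with a log2 difference of -2.62 (SE 0.44, adjusted p = 4.81e-04). Against RevDKO, Adamdec1 differed by -1.42 (adjusted p = 0.00734) and Pira2 by -3.07 (adjusted p = 5.96e-06).

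Some genes of lipid-associated macrophages, the state described around fat-laden hepatocytes, were higher. Of 22 tested, 6 rose, against 3.06% of all genes, and none fell. But the median was -0.15 and 12 members were negative, and the list had no common direction. Gpnmb, a transmembrane glycoprotein of lipid-loaded macrophages, lay between 0 and 4.93 RPKTM in Control (median 1.86) and between 1.37 and 46.0 RPKTM in RevScapTKO (median 10.4), with a log2 difference of 2.26 (SE 0.41, adjusted p = 0.00114) and with 11 of 12 RevScapTKO libraries above every Control library. No Control library exceeded 5 RPKTM for Gpnmb, so it met the limit for testing through its RevScapTKO libraries alone. Mmp12, the macrophage elastase, lay between 0.513 and 23.6 RPKTM in Control (median 5.0) and between 3.75 and 117 RPKTM in RevScapTKO (median 35.7), with a log2 difference of 2.30 (SE 0.44, adjusted p = 0.00242). Itgax, which encodes CD11c and was the second largest rise of the macrophage class, lay between 4.0 and 34.2 RPKTM in Control (median 11.2) and between 15.1 and 78.9 RPKTM in RevScapTKO (median 27.8), with a log2 difference of 1.39 (SE 0.29, adjusted p = 0.00452). Spp1, which encodes osteopontin and is also a cholangiocyte marker, differed by 1.19 (adjusted p = 0.00794). Cd63, a tetraspanin of late endosomes, differed by 1.32 (adjusted p = 0.0271) and Ctsl, the protease cathepsin L, by 0.65 (adjusted p = 0.0212). Cd63 met the limit for testing only with its RevScapTKO libraries. Trem2, the receptor that defines this state, lay between 0 and 27.9 RPKTM in Control (median 19.5) and between 8.36 and 51.6 RPKTM in RevScapTKO (median 16.2) and did not pass the test (log2 difference 0.44, SE 0.41, adjusted p = 0.541).

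The list's median difference was -0.39 in RevDKO against Control and 0.42 in RevScapTKO against RevDKO. In RevDKO Trem2 ranged from 0 to 34.7 (median 6.15) RPKTM, with a difference from Control of -1.14 (adjusted p = 0.401). Gpnmb ranged there from 0 to 2.98 (median 1.58) RPKTM and Mmp12 from 1.9 to 10.6 (median 4.78). The difference of RevScapTKO from RevDKO was 2.42 (adjusted p = 5.46e-05) for Gpnmb, 2.39 (adjusted p = 3.39e-04) for Mmp12 and 1.61 (adjusted p = 0.00131) for Itgax, and that of RevDKO from Control was -0.09 (adjusted p = 0.931) for Mmp12 and -0.22 (adjusted p = 0.787) for Itgax. In the contrast with RevDKO 2.86% of all genes were called, and in that of RevDKO with Control 0.505%. Gpnmb and Mmp12 were below their macrophage levels in hepatocyte libraries, with RevScapTKO means of 5.71 and 8.86 RPKTM against 15.0 and 45.2 in macrophage libraries. In hepatocyte libraries Gpnmb differed by 1.45 (adjusted p = 0.00563) and Mmp12 by 2.05 (adjusted p = 6.99e-05), and there the pan-macrophage markers had a median difference of 1.23. With the macrophage marker score as a covariate 7 list members were higher and none lower, and with the hepatocyte marker score, where 10.1% of all genes were higher, 7 were higher and 5 lower. Without the 3 Alb-rich libraries 5 were higher, against 1.57% of all genes. After subtraction of the hepatocyte share 2 were called, Gpnmb and Mmp12, both higher.

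**Figure D4:**
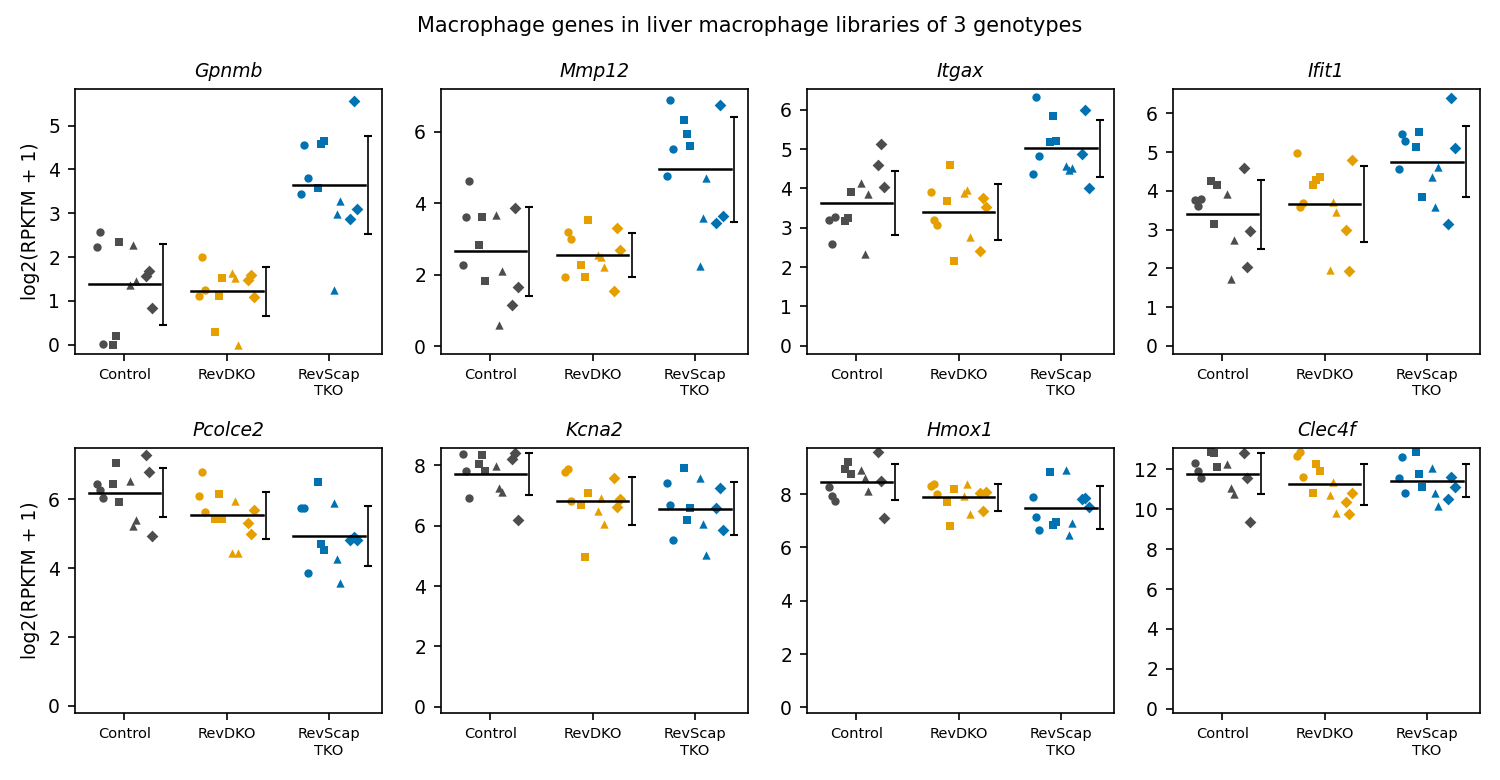
Each point is 1 macrophage library, as log2(RPKTM + 1), of Control (grey), RevDKO (orange) or RevScapTKO (blue), with symbols for the time (circle ZT4, square ZT10, triangle ZT16, diamond ZT22), bars for the mean and error bars for the SD of 12. Gpnmb, Mmp12 and Itgax are higher in RevScapTKO than in both other genotypes, Pcolce2 and Kcna2 lie lowest in RevScapTKO with RevDKO between or near it, Ifit1 is highest and Hmox1 lowest in RevScapTKO with overlap, and Clec4f overlaps most.

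Interferon-stimulated genes leaned upward. All 22 tested had a positive difference, compared with 48.0% of all genes, and the median was 0.73. Of these 5 were called higher, against 3.06% of all genes. Ifit1, which binds viral RNA that lacks cap methylation, lay between 2.31 and 23.0 RPKTM in Control (median 11.8) and between 7.86 and 83.0 RPKTM in RevScapTKO (median 28.5), with a log2 difference of 1.36 (SE 0.33, adjusted p = 0.0157). Mx2, a dynamin-like antiviral GTPase, lay between 2.16 and 35.9 RPKTM in Control (median 14.6) and between 14.4 and 88.9 RPKTM in RevScapTKO (median 28.6), with a log2 difference of 1.16 (SE 0.26, adjusted p = 0.00832). The groups overlapped for both, with 7 of 12 and 5 of 12 RevScapTKO libraries above every Control library. Usp18, which removes ISG15 from proteins and restrains the receptor, differed by 0.99 (adjusted p = 0.0122). Stat2, a subunit of the transcription factor ISGF3 that overlaps Apof on the same strand, differed by 0.88 (adjusted p = 0.00842). Oasl2, of the oligoadenylate synthetase family, differed by 0.86 (adjusted p = 0.0406), a call lost in 12 of 24 fits without 1 library. In RevDKO against Control the list's median was -0.21, and in RevScapTKO against RevDKO 0.90. In hepatocytes the median was 1.33. With the macrophage marker score as a covariate 17 of the 22 were higher (median 0.98), in a fit that called 5.66% of all genes, and with the hepatocyte marker score 4 were (median 0.50), in a fit that called 10.1% of all genes higher.

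The letters shared by many of these genes are shown for 2 of them that rose. The interferon-stimulated response element, the site of ISGF3, has as its core GAAA, any 2 bases and GAAA again, which reads TTTC, any 2 bases and TTTC on the other strand, and RefSeq promoters of build GRCm38.p6 were searched on both strands over the 250 bases before the transcription start. It was present in 10 of the 17 list members with a promoter in the table, and in 2.98% of 32851 promoters. Of the 5 called genes 3 had a promoter there, and 2 held the letters, which are in capitals:
Ifit1, chr19:34640639-34640888 (+): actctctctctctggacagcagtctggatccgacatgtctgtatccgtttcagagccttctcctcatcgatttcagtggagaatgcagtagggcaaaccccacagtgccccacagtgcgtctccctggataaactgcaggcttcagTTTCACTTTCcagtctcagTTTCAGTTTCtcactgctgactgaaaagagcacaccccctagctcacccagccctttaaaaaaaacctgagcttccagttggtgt
Stat2, chr10:128270248-128270497 (+): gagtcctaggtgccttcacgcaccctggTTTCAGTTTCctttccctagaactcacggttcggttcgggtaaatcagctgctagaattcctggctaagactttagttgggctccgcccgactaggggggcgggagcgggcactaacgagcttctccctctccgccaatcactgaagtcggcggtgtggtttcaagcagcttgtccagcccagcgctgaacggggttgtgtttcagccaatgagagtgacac
Ifit1 holds 2 matches, which begin 104 and 85 bases before the start, and Stat2 holds 1 at 222 bases. A match describes letters in this window and was not tested as a binding site.

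Cytokines and feedback genes of NF-κB did not pass the test: of 21 tested, none was called by limma, from -0.45 (adjusted p = 0.456) for Il10 to 1.25 (adjusted p = 0.0534) for Ccl5, with Il1b at 0.19 (adjusted p = 0.847) and Tnf at -0.22 (adjusted p = 0.766). None of 11 genes of MHC class II, which presents antigen, was called (median -0.26), nor any of 18 immediate early genes that mark cell dissociation (median -0.08). At an unadjusted p under 0.05, 3 of the cytokine genes, 2 of the MHC genes and 4 of the immediate early genes passed. Over all genes 3.06% were called higher and 1.98% lower. Of 17 genes of monocyte-derived macrophages 1 rose, Napsa (log2 difference 1.25, adjusted p = 0.0298), with a median of 0.19. Of 28 lysosomal genes Ctsl rose and Glb1 fell, and of 20 phagocytic receptors and bridging molecules Mfge8, which links dying cells to phagocytes, rose (log2 difference 0.87, adjusted p = 0.0262). Of 18 genes under LXR, the sterol-sensing receptor of macrophages, 4 fell, among them Srebf1, Mylip (log2 difference -0.70, adjusted p = 0.0484) and Lpcat3 (log2 difference -0.85, adjusted p = 0.00577), with Abca1 at -0.42 (adjusted p = 0.155) and Abcg1 at -0.78 (adjusted p = 0.0512).

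Further rises of the macrophage class were Col1a1 and Cit. Col1a1, type I collagen of stellate cells and fibroblasts, lay between 6.99 and 63.4 RPKTM in Control (median 23.6) and between 12.5 and 238 RPKTM in RevScapTKO (median 93.6), with a log2 difference of 1.89 (SE 0.37, adjusted p = 0.00289) and with 9 of 12 RevScapTKO libraries above every Control library. It rose with Col1a2 (log2 difference 1.08, adjusted p = 0.0147) and Col3a1 (log2 difference 1.21, adjusted p = 0.00305), and these were the 3 of 12 stellate cell markers that were called (list median 0.11). Col5a3, a minor fibrillar collagen chosen after its values were seen, lay between 38.8 and 435 RPKTM in Control (median 147) and between 194 and 2643 RPKTM in RevScapTKO (median 1023), with a log2 difference of 2.72 (SE 0.35, adjusted p = 1.18e-05) and stood in RevScapTKO at 312% of its hepatocyte level. Cit, a kinase of cytokinesis, differed by 0.82 (adjusted p = 0.0331), a call lost in 10 of 24 fits without 1 library. The hepatocyte libraries held called rises of the same genes, 1.89 for Col1a1, 1.25 for Col1a2, 1.47 for Col3a1, 1.53 for Col5a3 and 0.94 for Cit. The stellate cell markers had a median difference of 1.07 there. How much of these rises belongs to macrophage RNA was not tested. Siglech, a lectin of plasmacytoid dendritic cells, was also chosen after its values were seen. It lay between 0 and 7.95 RPKTM in Control (median 3.06) and between 5.46 and 18.4 RPKTM in RevScapTKO (median 11.4). Its log2 difference was 1.93 (SE 0.33, adjusted p = 6.54e-04), and it met the limit for testing only with its RevScapTKO libraries.

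Markers of other cells moved as follows, beside 3.06% of all genes called higher and 1.98% lower. None of 12 endothelial markers was called (median -0.28), nor any of 10 T and NK cell markers (median 0.36) or 6 neutrophil markers (median -0.27), and at an unadjusted p under 0.05 these lists held 0, 2 and 0 genes. Of 8 B cell markers 1 rose, Jchain of antibody-secreting cells (log2 difference 1.03, adjusted p = 0.0184). Both cholangiocyte markers tested were higher, Spp1 as given above and Sox9, which lay between 0.304 and 14.5 RPKTM in Control (median 3.38) and between 1.96 and 31.8 RPKTM in RevScapTKO (median 17.6), with a log2 difference of 1.91 (SE 0.40, adjusted p = 0.00574). The summed level of the 12 stellate cell markers ranged from 824 to 2200 RPKTM in Control (median 1184) and from 1039 to 2278 in RevScapTKO (median 1733), and that of the 6 cholangiocyte markers from 15.2 to 75.4 (median 41.8) and from 49.7 to 199 (median 86.4). No marker in these lists was at 0 in every library of either group. The part of these cells in the other results was not tested.

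Genes of the unfolded protein and integrated stress responses leaned upward, with a median of 0.34 in the macrophage libraries beside 0.35 in hepatocytes. Of 18 tested, 16 were positive, against 48.0% of all genes, none was lower, and 4 were higher, against 3.06% of all genes. Besides Fgf21 these were Trib3, a pseudokinase, which lay between 0 and 8.9 RPKTM in Control (median 1.17) and between 0.671 and 30.3 RPKTM in RevScapTKO (median 16.5), with a log2 difference of 2.40 (SE 0.42, adjusted p = 9.49e-04), Ddit3, which encodes CHOP and overlaps Mars on the opposite strand (log2 difference 1.0, adjusted p = 0.0167), and Hspa5, the chaperone BiP (log2 difference 0.91, adjusted p = 0.0167). Trib3 met the limit for testing only with its RevScapTKO libraries. Of 24 cell cycle genes 3 rose, against 3.06% of all genes. Cdkn1a, the inhibitor p21, lay between 0 and 18.1 RPKTM in Control (median 4.77) and between 8.65 and 41.3 RPKTM in RevScapTKO (median 24.7), with a log2 difference of 2.06 (SE 0.29, adjusted p = 4.27e-05) and with 10 of 12 libraries above every Control library. The others were Birc5 (log2 difference 1.21, adjusted p = 0.0442) and Mki67 (log2 difference 0.80, adjusted p = 0.0489), while Top2a (log2 difference 0.47, adjusted p = 0.332) and Cdk1 (log2 difference -0.02, adjusted p = 0.986) did not pass the test.

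**Figure D5:**
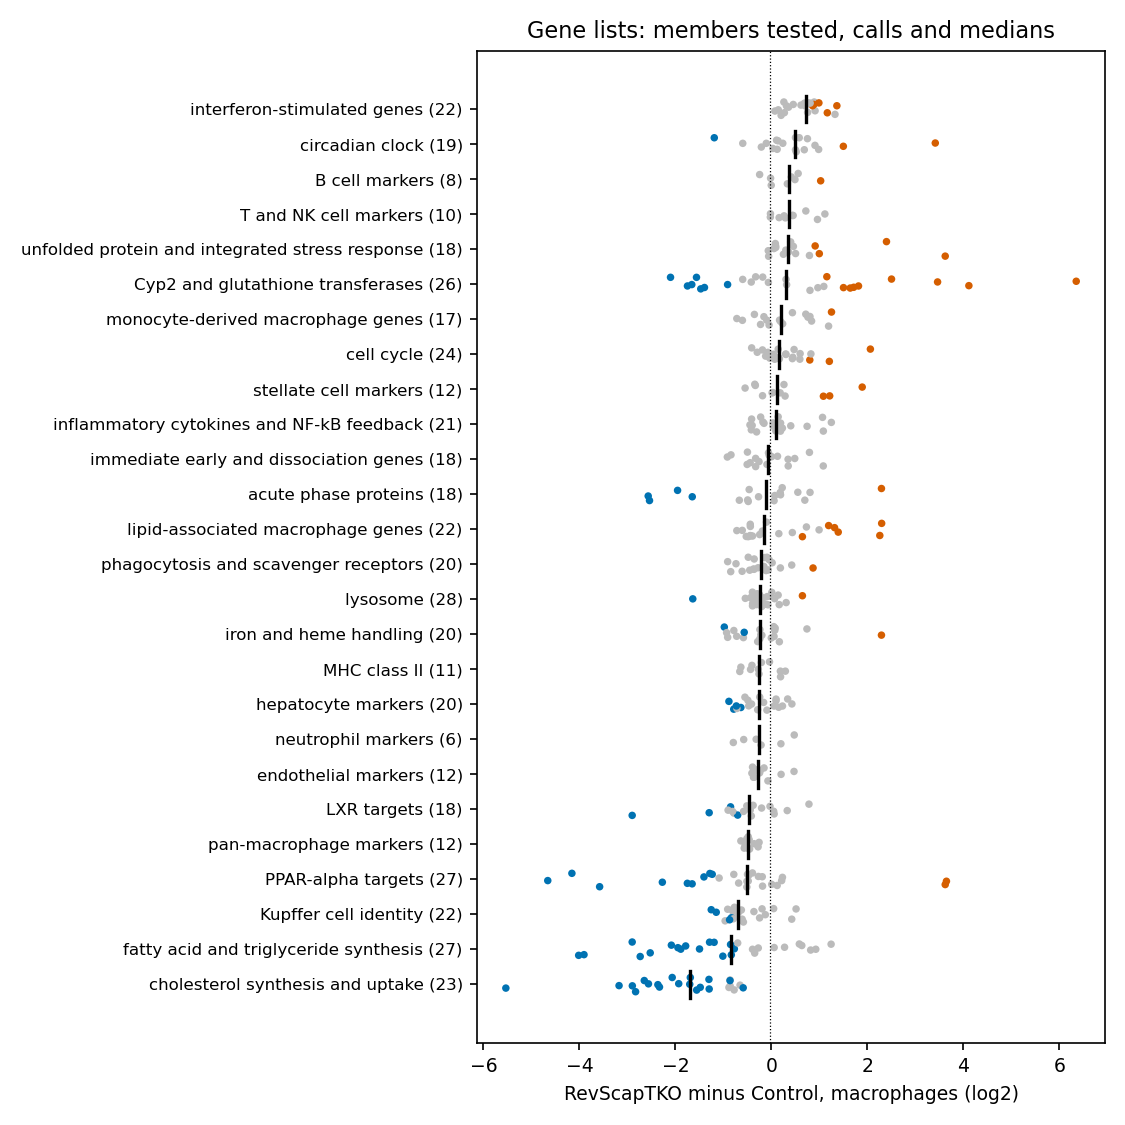
Each point is a tested member of a gene list, placed by its RevScapTKO minus Control difference in macrophage libraries (log2), orange where called higher, blue where called lower and grey where not called; black ticks are list medians, the dotted line the median of all genes, and numbers in brackets the members tested. Of the 26 lists drawn, which leave out cholangiocyte markers and the targeted genes, the cholesterol list lies lowest (median -1.69) and the interferon-stimulated list highest (median 0.73).

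Some genes were called in both cell types at like levels, with means within 2-fold between the cell types in each genotype. These were 60 genes called higher in both and 8 called lower in both, and Rpl29 and Glb1 had the largest falls of the 8. Rpl29, a protein of the large ribosomal subunit with many processed copies, was 1 of the largest falls of the shared class and lay between 16.2 and 41.6 RPKTM in Control (median 31.6) and between 0.07 and 3.35 RPKTM in RevScapTKO (median 1.86), with no overlap (log2 difference -3.54, SE 0.23, adjusted p = 1.08e-10). RevDKO macrophages ranged from 16.2 to 49.0 (median 32.1), and the hepatocyte difference was -4.18 (adjusted p = 7.87e-15). Glb1, the lysosomal beta-galactosidase, lay between 30.9 and 97.3 RPKTM in Control (median 50.9) and between 8.89 and 32.6 RPKTM in RevScapTKO (median 15.4), with a log2 difference of -1.64 (SE 0.19, adjusted p = 3.78e-06), with 30.5 to 85.5 (median 46.6) in RevDKO and -1.77 (adjusted p = 1.15e-07) in hepatocytes.

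Both genes share a chromosome with Scap. In build mm9, Scap lies on chromosome 9, 110235792 to 110287453, plus strand. Rpl29 lies on chromosome 9, 106331742 to 106333899, plus strand, and Glb1 on chromosome 9, 114310196 to 114383497, plus strand, 3.90 Mb to one side of Scap and 4.02 Mb to the other. Within 10 Mb of Scap 14 of 175 genes tested were called (8.0%), in both directions, against 5.04% of all genes. Nnt, the mitochondrial transhydrogenase, on chromosome 13, 120123124 to 120197818, minus strand, lay between 86.4 and 137 RPKTM in Control (median 98.4) and between 26.0 and 61.6 RPKTM in RevScapTKO (median 44.4) with no overlap (log2 difference -1.24, SE 0.15, adjusted p = 4.33e-06), with 40.2 to 127 (median 84.5) in RevDKO and a hepatocyte difference of -1.64 (adjusted p = 1.57e-06). These genes apart from Rpl29 were chosen after their values were seen, and the part of their position in the falls was not tested.

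No gene passed the test for a difference that depended on the time of day. The limma F-test of the genotype-by-time terms called none of 12858 genes (0%), and 298 had an unadjusted p under 0.05. On simulated data this test found 35% of genes shifted by 2 log2 units at ZT16 and ZT22 alone, and 66% of those shifted by 3. Differences that depend on time could thus be missed. The smallest p-values belonged to Adamts4, Ltf, Tgfb1, Adam11 and Ube2d2b, each with an adjusted p of 0.999827. Among the 648 calls, 634 had the same sign at all 4 times. Fasn differed from -5.23 to -2.57 over the times, Apoa4 from 1.96 to 5.13, Gpnmb from 0.80 to 3.41 and Pcolce2 from -1.5 to -1.14.

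The genes that rose were longer and richer in G and C than the genes tested. Over the longest coding transcripts of an annotation of the same genome build, matched by symbol for 85.8% of the 394 genes that rose and 85.7% of all tested, the median GC content was 53.2% against 50.3% and the median length 3796 against 3062 bases. The 254 genes that fell had medians of 50.2% and 2326 bases, with 91.3% matched. In the shared class the medians of the genes that rose were 53.8% and 3983 bases. The part of GC content and length in the rises was not tested.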

How the data were processed

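Liver macrophages and hepatocytes were profiled by RNA-seq, and per the methods the authors removed ribosomal RNA, aligned reads with STAR to mm9 and counted them over RefSeq genes with HOMER (versions, and whether counting used strand, are not given in the sources used here). The deposited values are RPKM multiplied by 10 (RPKTM), quantile-normalized by the authors within each cell type's table, so depth is unknown and tables are not tested against each other. One row per gene symbol (the transcript with the highest mean) was kept where at least 3 columns exceeded 5. Genes weak in Control met this limit only with RevScapTKO columns. Among them were Fgf21, Abcc12, Gpnmb, Npas2, Cyp2a4, Siglech, Trib3, Cd63, Gm19619 and B930025P03Rik. Differences were fitted with limma 3.58.1 (R 4.3.3, trend) on log2(RPKTM + 1) with genotype and ZT, over 24 libraries, and checked on simulated data. The hepatocyte share of a library is the median of 20 markers relative to hepatocytes of its genotype and time. The text names, per class, up to 5 called genes in each direction with the largest difference and the same sign at all times, list members, and genes said to be chosen later. Members and lists were chosen with earlier results of these data known. Some genes picked by these rules are not reported here. Alternatives covered the pseudocount, filters, weights, covariates, class limits, a replicate block and each library left out.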

Additional observations from a re-analysis of the deposited data

How the results depend on the processing

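Depth is unknown, and the 12 libraries of a genotype varied in hepatocyte and macrophage marker content. Counts of calls moved with how that content was treated and with the weights, block and libraries used. The 3 Alb-rich libraries were set apart by their Alb value, and their hepatocyte share was not above the median of their group. Against 648 calls in all, array weights gave 2591, the hepatocyte marker score as a covariate 2540, a replicate block 1301, subtraction of carry-over 67 and leaving out the 3 Alb-rich libraries 425 (201 higher and 224 lower); the cause was not tested. Without single libraries the range was 430 (without RevScapTKO ZT10 replicate 3) to 1156 (without Control ZT22 replicate 3), with 1022 without RevScapTKO ZT10 replicate 1. In the macrophage class (16 calls) array weights gave 178, the hepatocyte score 174, the replicate block 83, subtraction 1, no filter on low values 5, 1 mean per genotype and time 9, leaving out the Alb-rich libraries 4 (3 higher and 1 lower), a class limit of 2-fold 54, of 16-fold 0, and classes taken from the group with the higher macrophage mean 32, with 8 to 68 without single libraries. In the shared class (445) these were 1913 with weights, 1868 with the hepatocyte score, 911 with the block, 42 after subtraction, 229 without the Alb-rich libraries and 200 at 2-fold, with 269 to 822 without single libraries. In the hepatocyte class (187) they were 500, 498, 307 and 24 in the same order up to subtraction, 300 with the macrophage score, 394 at 2-fold and 6 at 16-fold, with 148 to 266 without single libraries. The genotype-by-time test gave 4 calls without the Alb-rich libraries and 0 to 21 without single libraries.

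After subtraction of carry-over, with values under 0 set to 0, these differences turned sign: Nr1d1 to -0.19, Nr1d2 to -2.02, Scd1 to 3.46, Scd2 to -0.027, Sqle to 1.07, Cyp51 to 1.53, Insig1 to 3.01 and Fads1 to 4.68. The hepatocyte score turned Nr1d2 to -0.18 and Scd2 to -0.12, the macrophage score turned Scap to -0.18 and Clec4f to 0.14, leaving out the Alb-rich libraries turned Scap to -0.18, and array weights turned Scd2 to -0.084 and Trem2 to -0.018. Without single libraries Nr1d2 ranged from -0.108 to 0.131, Scap from -0.0724 to 0.124 and Scd2 from -0.03 to 0.135. Of 66 called genes followed, 58 kept direction and call without each of the 24 libraries and 8 lost the call at least once, with the highest adjusted p (limma) at 0.101, and none turned sign. After subtraction of carry-over 17 of the 66 kept direction and call, 40 lost the call, 5 turned sign and the others could not be fitted, and without the 3 Alb-rich libraries 52 kept the call and 14 lost it.

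Replicate numbers were not taken to pair the samples, since the labels do not say so and not every pair of same-numbered libraries had a correlation of deviations over 0.1. Of 12 pairs 8 did (from -0.06 to 0.32), and in 7 both libraries correlated best with their own number, a hint of pairing in part of the libraries. The replicate block gave the counts above.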
